A study of Cornus officinalis with 7 samples.

Results

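The 9 unigenes described here were annotated in the study as cytochrome P450s and had their highest expression in a leaf of *C. officinalis*. They were selected by their measured levels: the study compared P450 expression with the accumulation of iridoids over the tissues, and the 9 were listed for following secologanin or gentiopicroside and for peaking in young or mature leaf. They are 9 of the 304371 unigenes of the transcriptome assembly, 9 of the 262 P450 unigenes in the study's table and 9 of the 45 that the study kept for their correlation with an iridoid. Since the tissue levels themselves chose them, the levels below are a description, and nothing was tested. Metabolite levels were not analysed here, so which unigene follows which compound was not checked. RNA was sequenced from leaf and stem, each at a young and a mature stage, and from inflorescence, pericarp and seed, with 1 strand-specific library of poly(A) RNA per tissue. All 7 tissues were taken from untreated plant material under 1 identifier, aged 12 years, in a medicinal garden. With 1 library per tissue the spread between plants is unknown and differences are given as sizes without p-values.

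Cytochrome P450s are membrane-bound haem enzymes that use molecular oxygen and electrons from a reductase to hydroxylate or otherwise oxidise small molecules. In plants they form one of the largest enzyme families and carry out many of the tailoring steps of terpenoid, alkaloid and phenylpropanoid metabolism. Iridoids are monoterpenoids built from geraniol, and several steps of their synthesis in *Catharanthus roseus* are P450 reactions, among them geraniol 10-hydroxylase (G10H), iridoid oxidase (IO), 7-deoxyloganic acid hydroxylase (7DLH) and secologanin synthase (SLS), which opens the ring of loganin to give secologanin. Secologanin and gentiopicroside are both secoiridoids, that is, iridoids with this ring opened. None of the 9 unigenes carries the name of such a step in the study's tables, which annotate them only as P450s, so no substrate or subfamily is given for them. Their sequences were not used here.

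Expression is given as FPKM, the fragments per kilobase of unigene scaled to the mapped fragments of a library, so levels of different unigenes are compared per length. Low values step in units of what 1 fragment contributes, which gives the depth of a library relative to another. With young stem as 1, a fragment contributed 1.74 times as much FPKM in inflorescence, 1.47 times in pericarp, 1.15 times in each leaf and 1.07 times in seed, so the inflorescence and pericarp libraries were the shallowest. In mature stem no common step could be read. All 9 P450 unigenes were listed at 0 in mature stem, but so were 86.9% of the 44942 unigenes that reached 5 FPKM somewhere in the other 6 tissues. The zeros in this library therefore say little about the P450s, and the description below covers the 6 other tissues. The unigenes carry no gene symbols, so the tissue labels were not checked against marker genes. In whole tissues, fewer expressing cells and less RNA per cell cannot be told apart.

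The 9 P450 unigenes spanned a wide range of leaf levels. Unigene288424 stood far above the rest, with 612.87 FPKM in young leaf and 517.04 FPKM in mature leaf, the highest value among the 262 P450 unigenes in both. The other 8 reached between 5.85 FPKM (Unigene088225, mature leaf) and 55.52 FPKM (Unigene117816, mature leaf). Summed over the 9, FPKM was 728 in young and 638 in mature leaf, against 290 for young stem, 172 for inflorescence, 131 for pericarp and 8.13 for seed. Without Unigene288424 the sums were 115, 121, 28.9, 24.6, 11.9 and 8.13 in the same order. The leaves were thus close to each other and above the remaining tissues with or without the dominant unigene, while the seed sum came entirely from the other 8.

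**Figure D1:**
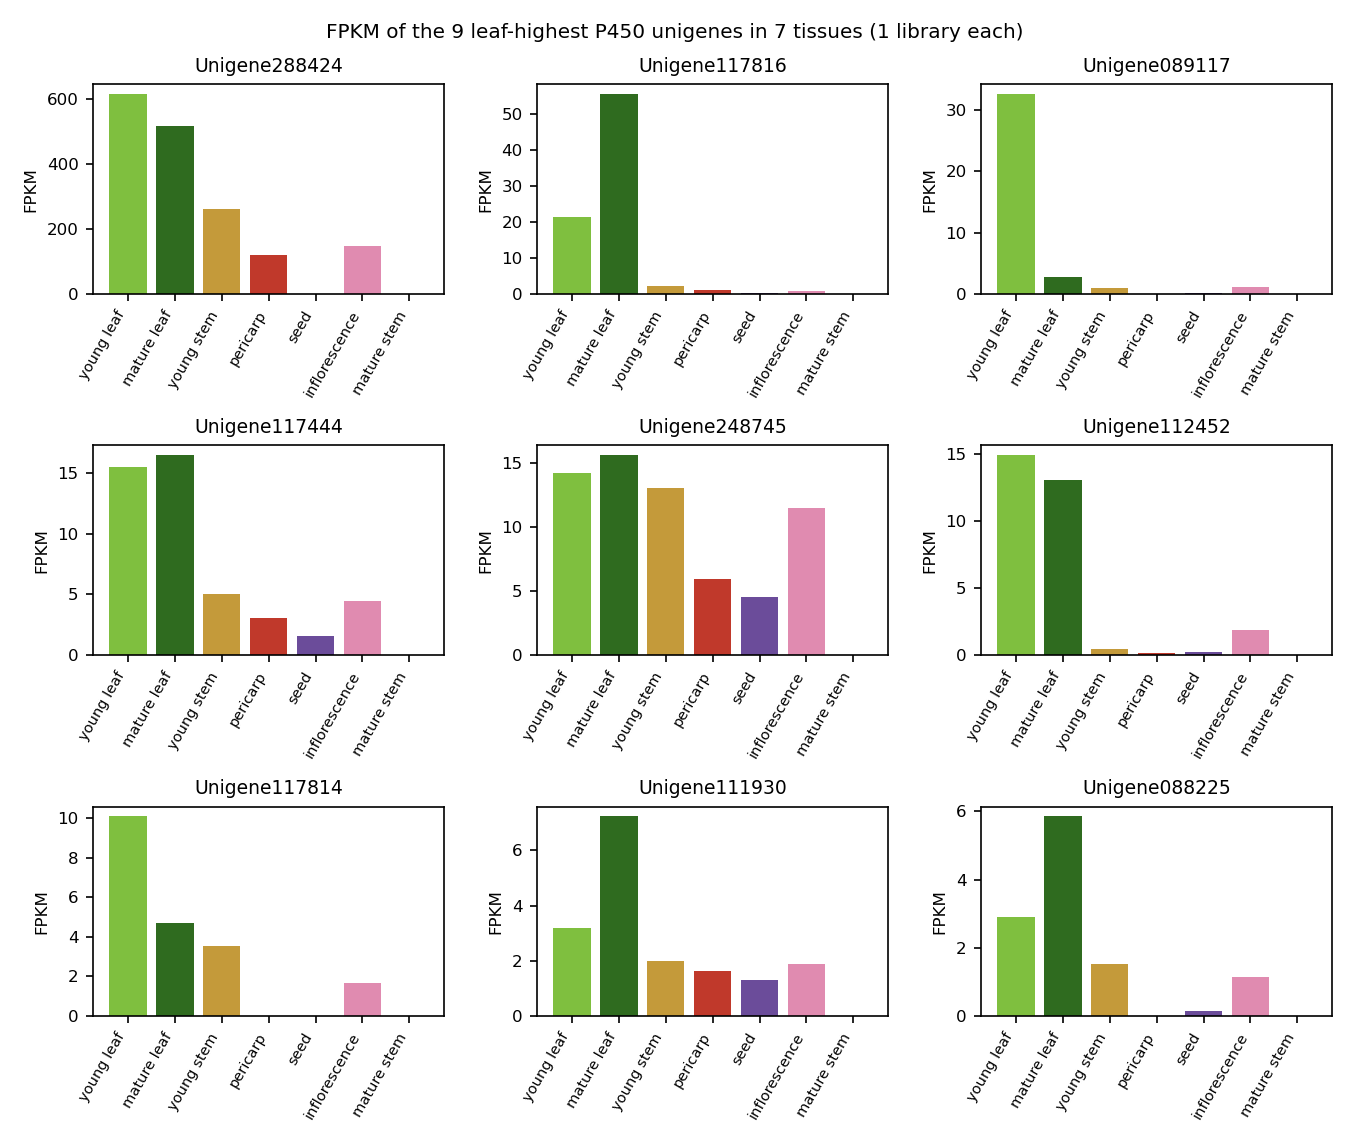
FPKM (vertical axis, linear, a separate scale in each panel) of the 9 P450 unigenes in the 7 tissues, 1 bar per library and no error bars because each tissue has 1 library. A leaf bar is the tallest in every panel, from 5.85 FPKM in Unigene088225 to 612.87 FPKM in Unigene288424, and every mature stem bar is at 0.

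Of the 9, 4 were expressed at similar levels in young and mature leaf, within 2-fold of each other. Unigene288424 had 612.87 FPKM in young and 517.04 in mature leaf, then 260.9 in young stem, 147.55 in inflorescence and 118.8 in pericarp, and was listed at 0 in seed. It ranked above 99.9% of the active unigenes of each leaf library, and its young leaf level was 1.19 times that of mature leaf. Of the 6 tissues compared, seed was the one in which this abundant transcript was listed at 0.

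Unigene112452 was close to leaf-limited. It had 14.89 FPKM in young leaf and 13.05 in mature leaf, against 1.89 in inflorescence, 0.47 in young stem, 0.24 in seed and 0.11 in pericarp. Both leaves lay at least 6.90 times above the next tissue, inflorescence, and 91.2% of its summed FPKM over the 6 tissues fell in the leaves. The young leaf level was 1.14 times that of mature leaf, a ratio that turned slightly the other way when the libraries were scaled to each other (log2 ratio 0.19 as deposited and -0.04 after median-ratio scaling).

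Unigene117444 and Unigene248745 were marginally higher in mature leaf. Unigene117444 had 16.43 FPKM in mature and 15.52 in young leaf, whereas young stem had 5.04, inflorescence 4.47, pericarp 3.02 and seed 1.54. Unigene248745 had 15.61 FPKM in mature and 14.27 in young leaf, while young stem had 13.05, inflorescence 11.47, pericarp 5.95 and seed 4.5. At equal leaf levels the former thus fell off sharply outside the leaf, whereas the latter was nearly as high in young stem and inflorescence. Unigene248745 was the least leaf-limited of the 9, with 46.1% of its summed FPKM in the leaves.

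As deposited, young leaf was at least 2-fold above mature leaf for 2 unigenes, by a wide margin for Unigene089117 and a narrow one for Unigene117814. Unigene089117 had 32.48 FPKM in young leaf and 2.73 in mature leaf, followed by inflorescence at 1.17, young stem at 1.03 and seed at 0.1, and was listed at 0 in pericarp. Its young leaf level was 11.9 times that of mature leaf, the widest leaf-age ratio of the 9, and 3.90% of all leaf-highest unigenes had a young-to-mature ratio at least as large. Its mature leaf level was 2.33 times that of inflorescence, so that it was nearly a transcript of young leaf alone.

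Unigene117814 had 10.1 FPKM in young leaf, 4.72 in mature leaf, 3.52 in young stem and 1.67 in inflorescence, and was listed at 0 in pericarp and seed. Young leaf was 2.14 times mature leaf, just past 2-fold. This margin was lost with median-ratio scaling (log2 ratio 0.87) and with log2(FPKM + 1) (0.96), in place of 1.10. The mature leaf level was 1.34 times that of young stem, so the difference between the leaf stages exceeded that between mature leaf and stem.

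Mature leaf was at least 2-fold above young leaf for 3 unigenes. Unigene117816 had 55.52 FPKM in mature leaf and 21.51 in young leaf, whereas young stem had 2.24, pericarp 1.18, inflorescence 0.93 and seed 0.31. Mature leaf was 2.58 times young leaf, and even young leaf was 9.60 times the highest other tissue, the widest such gap of the 9. The leaves held 94.3% of its summed FPKM, the largest share of the 9.

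Unigene111930 and Unigene088225 had lower levels with the same leaf order. Unigene111930 had 7.23 FPKM in mature and 3.18 in young leaf, with young stem at 2, inflorescence at 1.87, pericarp at 1.62 and seed at 1.29, and with mature leaf 2.27 times young leaf. Unigene088225 had 5.85 FPKM in mature and 2.9 in young leaf, with young stem at 1.51, inflorescence at 1.14 and seed at 0.15, and was listed at 0 in pericarp, with mature leaf 2.02 times young leaf. Outside the mature leaf Unigene111930 stayed between 1.29 and 3.18 FPKM, while Unigene088225 declined towards 0 in the fruit tissues. With log2(FPKM + 1) both fell short of 2-fold, at log2 ratios of -0.98 and -0.81.

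A bound on the counting error of the leaf-age ratio could be given for 4 unigenes with low values in some tissue. If no value lies below 1 fragment, the lowest value of a unigene limits what 1 fragment can be worth, and RSEM can assign parts of fragments, so the bound is approximate. For Unigene089117 it gave at least 302 fragments in young leaf and 25.2 in mature leaf, and a 95% interval of the ratio no wider than 7.93 to 17.9. For Unigene117816 the mature-to-young ratio of 2.58 had an interval no wider than 1.94 to 3.44, and for Unigene088225 the ratio of 2.02 had one of 1.15 to 3.55. For Unigene112452 the young-to-mature interval of 0.917 to 1.42 included 1. The other 5 lack a value low enough for a useful bound, which guarantees under 10 fragments in each leaf. That figure is a floor and not an estimate of the fragments read. Their actual number was not derived, so no interval is given. These intervals cover counting error only, not differences between plants or leaves.

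Against a threshold of 2-fold, 2 of the 9 P450 unigenes were higher in young leaf, 3 were higher in mature leaf and 4 were within 2-fold. Among the 8635 unigenes that were highest in a leaf and reached an FPKM of 5, 17.2% were at least 2-fold higher in young leaf and 18.2% at least 2-fold higher in mature leaf. Of the 9, the same classes held 22.2% and 33.3%. With a minimum of 1 FPKM in place of 5, the background shares were 30.4% and 35.8%, both above those of the 9, so nothing is read from these counts. The median young-to-mature ratio was 0.945 for the 9 and 0.949 for the 8011 leaf-highest unigenes above 0 in both leaves. The other 47 leaf-highest P450 unigenes of the table lay more towards mature leaf, with a median ratio of 0.595, of which 2 were at least 2-fold higher in young leaf and 19 in mature leaf. Among them, the 16 that the study also kept for a correlation with an iridoid had a median ratio of 0.855, closer to that of the 9, with 1 at least 2-fold higher in young leaf and 3 in mature leaf. The highest tissue was young leaf for 4 of the 9, for 6 of these 47 and for 5 of the 16. Among all 8635 leaf-highest unigenes it was young leaf for 4024, so nothing is read from this count either.

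**Figure D2:**
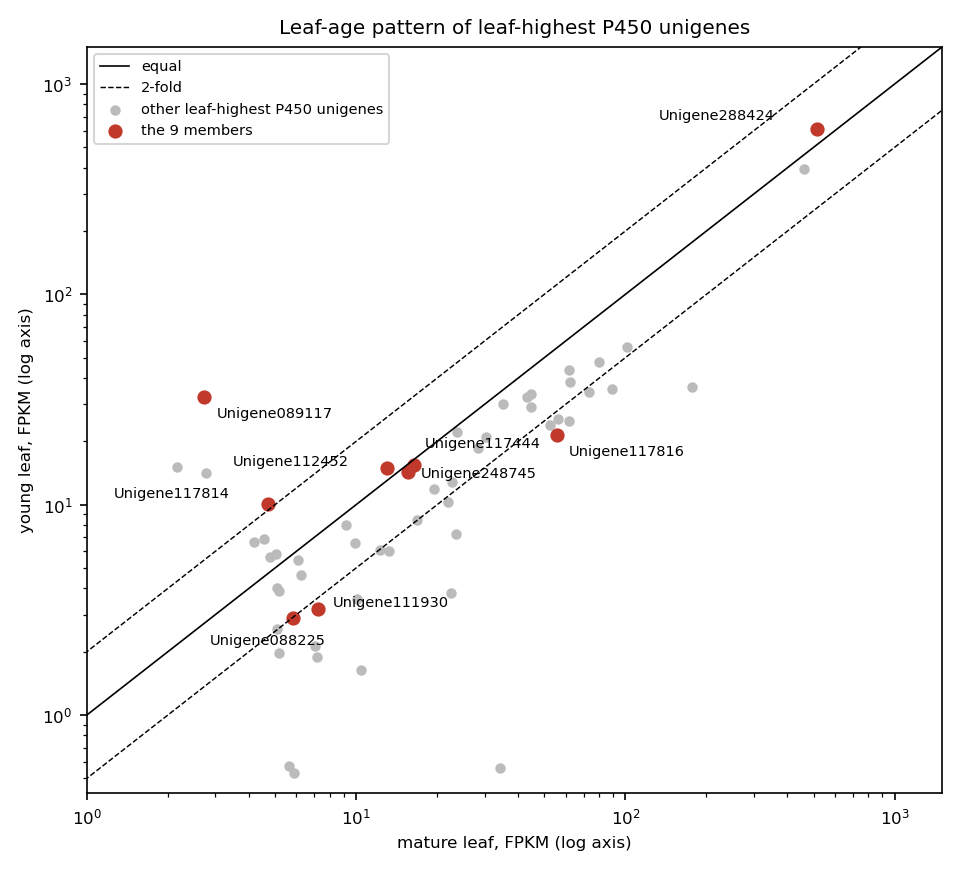
Young leaf FPKM against mature leaf FPKM (both log axes) for the 9 P450 unigenes (red, named) and the 47 other leaf-highest P450 unigenes of the study's table (grey), 1 point per unigene. The solid line marks equal levels and the dashed lines 2-fold: Unigene089117 lies far above the upper line at a ratio of 11.9, Unigene117814 lies just past it, and 3 members lie below the lower one.

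Outside the leaf, the median levels of the 9 in young stem and inflorescence lay above those in the fruit tissues. Among the 4 non-leaf tissues young stem was the highest for 7 of the 9 unigenes and inflorescence for the other 2, Unigene112452 and Unigene089117. The 9 were picked by their levels over these tissues, and no share among other unigenes was computed. Nothing is therefore read from these ranks. Relative to the peak of each unigene, the median level was 27.7% for young stem, 19.5% for inflorescence, 2.13% for pericarp and 1.61% for seed. The spread around these medians was wide, from 3.16% to 83.6% in young stem and from 0% to 38.1% in pericarp. Inflorescence fell below pericarp only for Unigene117816, with 0.93 against 1.18 FPKM.

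Seed or pericarp was the lowest of the 6 tissues for all 9 unigenes. This also held for 67.8% of all leaf-highest unigenes and for 31 of the 47 other leaf-highest P450 unigenes. It held too for all 36 of the other P450 unigenes that the study kept for a correlation with an iridoid, and the 9 were picked by the same comparison, so nothing is read from this count. Seed alone was lowest for 5 unigenes (Unigene288424, Unigene117444, Unigene111930, Unigene248745 and Unigene117816), pericarp alone for 3 (Unigene112452, Unigene088225 and Unigene089117), and Unigene117814 was listed at 0 in both. The pericarp library was also shallower than the seed library by the fragment values above. Its part in the zeros was not tested.

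Both leaves were at least 2-fold above every other tissue for 4 unigenes: Unigene117816, Unigene112452, Unigene117444 and Unigene089117, at 9.60, 6.90, 3.08 and 2.33 times. Among all leaf-highest unigenes 23.1% met this criterion, and among the other 47 leaf-highest P450 unigenes 10 did. The count for the 9 was 6 with median-ratio scaling and 2 after summing near-numbered P450 unigenes, and the background share was 13.8% with a minimum of 1 FPKM. Unigene288424 fell just short, its mature leaf level being 1.98 times that of young stem. A gap as wide as that of Unigene117816 was found in 6.47% of the leaf-highest unigenes. The share of the summed FPKM found in the leaves was graded over the 9, from 46.1% in Unigene248745 to 94.3% in Unigene117816.

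**Figure D3:**
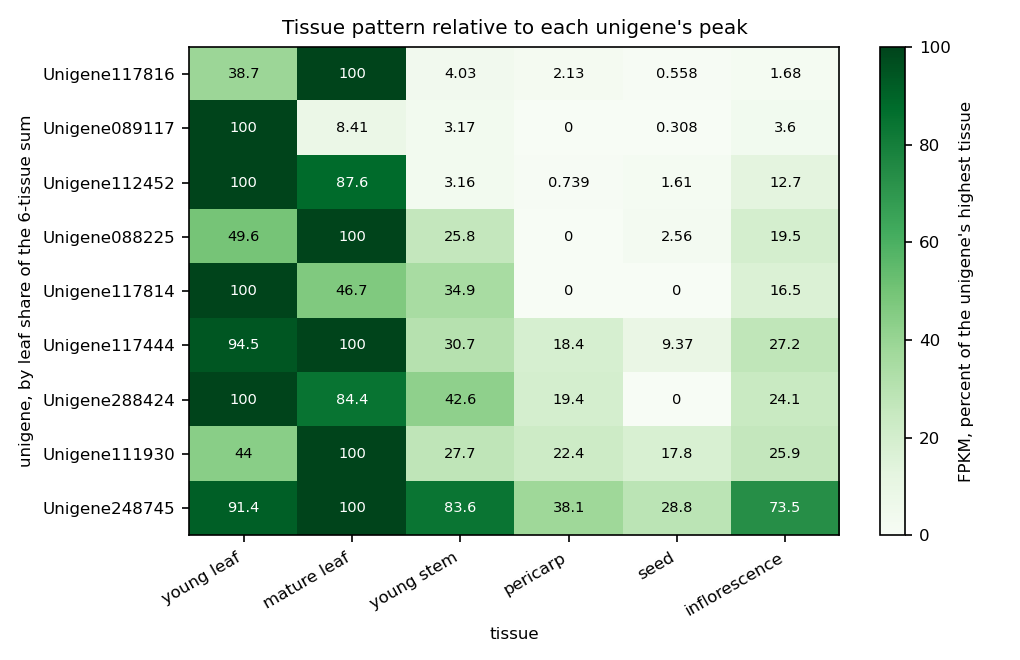
FPKM of each P450 unigene in 6 tissues as a percentage of its own highest tissue (colour and printed value), with unigenes ordered by the share of their summed FPKM found in the leaves. The upper 3 unigenes reach at most 12.7% outside the leaves, whereas Unigene248745 in the bottom row stays at 83.6% in young stem and 73.5% in inflorescence.

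The rule placed the 9 among the P450 unigenes that peak in a leaf. Of all unigenes that reached 5 FPKM, 19.2% were highest in a leaf. The member closest to the limit was Unigene248745, whose highest leaf level, 15.61 FPKM, was 1.20 times its young stem level. Of the 45 P450 unigenes kept by the study, the nearest ones with a higher level outside the leaf were Unigene279514 (10.43 FPKM in mature leaf and 13.08 in inflorescence) and Unigene245840 (6.33 FPKM in young leaf and 7.96 in young stem). A further 16 of the 45 were also highest in a leaf and are not among the 9. They peaked in young leaf in 5 cases and in mature leaf in 11.

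The 9 unigenes, chosen for similar tissue patterns, varied together over the 6 tissues. The median Pearson's r of log2(FPKM + 1) over the 36 pairs was 0.84, and 10 pairs exceeded 0.9. The lowest value, 0.49, was between Unigene111930 and Unigene089117, and the highest, 0.95, between Unigene111930 and Unigene117816. The points are the same 6 libraries in every pair, so these values are a description. The median was 0.65 among the 47 other leaf-highest P450 unigenes and 0.74 among the 16 kept for a correlation with an iridoid. The 9 were picked by the same levels that r is taken from, so nothing is read from their higher median.

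The order of the tissues was shared within small groups. Unigene117444, Unigene111930 and Unigene248745 had the same order, from mature leaf through young leaf, young stem, inflorescence and pericarp to seed. Unigene112452 and Unigene089117 shared another order, with young leaf first, inflorescence above young stem and pericarp last. Unigene288424 and Unigene117814 went from young leaf through mature leaf and young stem to inflorescence, the latter with a tie at 0 in the fruit tissues. A shared order did not mean shared size: from first to second tissue Unigene112452 dropped by a factor of 1.14 and Unigene089117 by 11.9.

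Among the 83 unigenes that the study annotated to the iridoid pathway, 53 reached an FPKM of 5 in the 6 tissues and 18 of these were highest in a leaf. For the 4 P450 steps this held for 7 of 17, namely 3 of 8 for G10H, 3 of 5 for 7DLH and 1 of 4 for SLS, while the 1 IO unigene did not reach an FPKM of 5. The SLS unigene was Unigene075938, with 1929.28 FPKM in young and 1470.01 in mature leaf, 965.14 for young stem, 139.57 for inflorescence, 8.62 for pericarp and 3.45 for seed. Its level in both leaves was above that of every one of the 9. The highest G10H unigene, Unigene288502, had 93.48 FPKM in mature leaf and 43.12 in young leaf, and the highest 7DLH unigene, Unigene120969, peaked in pericarp, with 263.8 FPKM against 61.99 in mature leaf. The highest IO unigene, Unigene100054, reached 1.94 FPKM in inflorescence.

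Compared with this list by r, 2 of the 9 were most like the SLS unigene. Here r compares the shape of a profile and leaves out how far it falls. Unigene248745 kept 28.8% of its peak in seed, whereas the SLS unigene fell from 1929.28 FPKM in young leaf to 3.45 in seed. Over the 6 tissues, r with Unigene075938 was 0.98 for Unigene248745 and 0.97 for Unigene117814, the highest values with any of the 53 pathway unigenes. Unigene112452, Unigene111930 and Unigene117816 were most like Unigene288660, annotated as geraniol synthase (GES), which releases geraniol from geranyl diphosphate, with r of 0.97, 0.94 and 0.97 in that order. Unigene117444 and Unigene088225 were most like Unigene086967 (r = 0.96 and 0.91), and Unigene288424 like Unigene116310 (r = 0.97), both annotated as geranyl diphosphate synthase (GPPS). Unigene089117 had no close counterpart, its best being the 7DLH unigene Unigene276335 at r = 0.83, which was high in both leaves, at 103.56 and 75.95 FPKM. With 6 points such values were shared by many unigenes: from 57 (0.127%, Unigene089117) to 677 (1.51%, Unigene117444) of the 44941 others that reached 5 FPKM had r above 0.95 with a member.

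Among the P450 unigenes of the table, the profile most like each member was also a leaf profile in every case. The members were picked as leaf-highest, so this is a description only. Of the unigenes named below, Unigene116755, Unigene224632, Unigene036647 and Unigene075298 were also kept by the study for a correlation with an iridoid. Unigene117814 and Unigene248745 were each other's closest, at r = 0.92. Unigene089117 was closest to Unigene116755 (r = 0.94), which likewise favoured young leaf, with 15.18 FPKM against 2.17 in mature leaf. Unigene117816 was closest to Unigene082799 (r = 0.98) and Unigene112452 to Unigene114685 (r = 0.97), both with more in mature leaf than in young leaf. Unigene117444 was closest to Unigene224632 (r = 0.97), another abundant leaf P450 with 462.33 FPKM in mature leaf and 395.92 in young leaf. The remaining pairs were Unigene288424 with Unigene036647 (r = 0.97), Unigene088225 with Unigene075298 (r = 0.96) and Unigene111930 with Unigene109034 (r = 0.96).

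For 6 of the 9, the P450 table also held unigenes whose number lay within 3 of theirs. Whether such numbers mark related contigs was not tested, and RSEM divides fragments between similar contigs. The neighbours of Unigene288424 peaked where it was not found. In seed, where Unigene288424 was listed at 0, Unigene288422 had 337.45 FPKM, Unigene288425 had 38.19 and Unigene288423 had 36.57. In young leaf these 3 had 11.36, 6.10 and 8.83 FPKM, against 612.87 for Unigene288424. Of the 6 tissues, only in seed were these 3 above Unigene288424, and over the 6 tissues r was between -0.84 and -0.60. Outside seed, Unigene288425 had 11.79 FPKM in pericarp, above its young leaf level, whereas Unigene288424 had 118.8 FPKM there, below its own. Unigene288422 and Unigene288423 had less in pericarp than in young leaf, with 5.72 and 6.66 FPKM. Young stem was the second tissue of Unigene288422, Unigene288423 and Unigene288425, at 22.41, 18.6 and 16.74 FPKM, and Unigene288424 had 260.9 FPKM there. No r without seed was computed for them.

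Unigene117814 and Unigene117816, numbered 2 apart, were both leaf-high but favoured opposite leaf stages, at r = 0.79. Between them Unigene117815 had 22.5 FPKM in mature leaf, 10.29 in inflorescence and 3.82 in young leaf, and Unigene117819 peaked in pericarp with 103.07 FPKM. Summed over the numbers within 3 of Unigene117814, mature leaf was the higher stage, with a log2 ratio of -1.22 in place of 1.10. The higher young leaf level of Unigene117814 was thus that of this unigene taken alone. Unigene112453, next to Unigene112452, favoured mature leaf with 7.18 FPKM against 1.89, and the sum of both had a log2 ratio of -0.27. Unigene089116, next to Unigene089117, peaked in inflorescence at 9.43 FPKM and was listed at 0 in both leaves. Unigene117446, numbered near Unigene117444, peaked in pericarp at 48.24 FPKM. Of the 11 neighbours that are not members, 2 were highest in a leaf, as were 19.8% of the P450 unigenes of the table outside the 9. Among all unigenes that reached 5 FPKM the share was 19.2%, so nothing is read from this count.

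**Figure D4:**
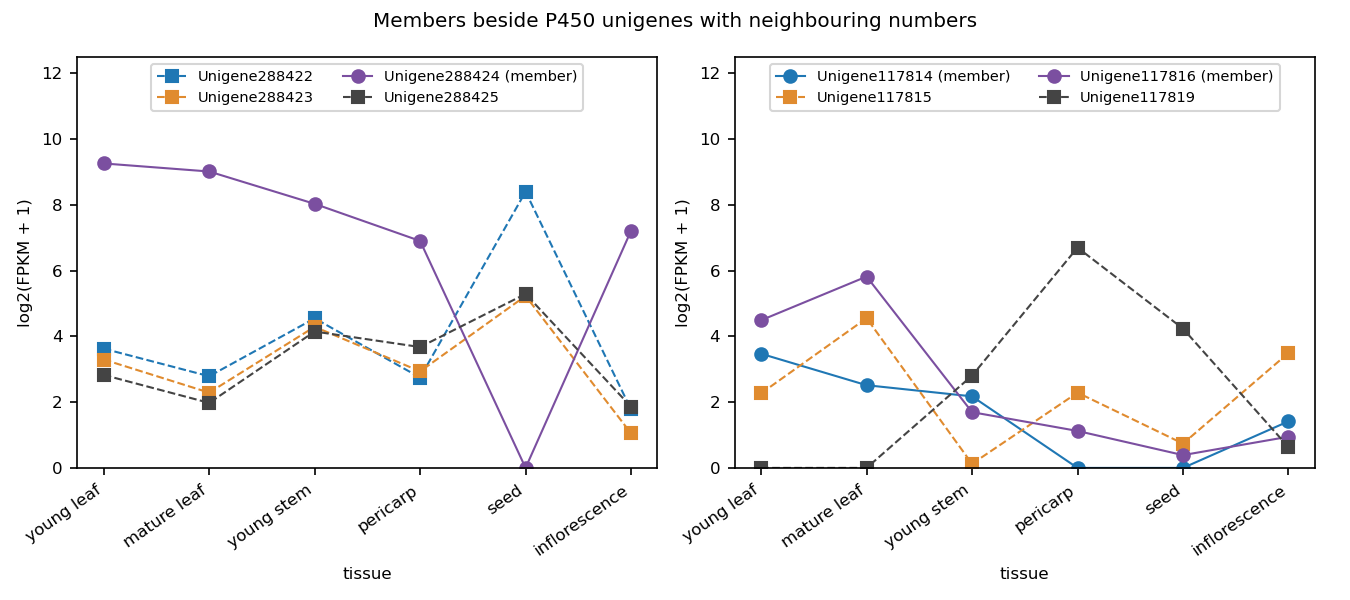
log2(FPKM + 1) in 6 tissues for Unigene288424 and 3 P450 unigenes of neighbouring number (left) and for Unigene117814 and Unigene117816 with 2 neighbours (right), with members as circles, the others as squares, and lines that only join the points of a unigene. In seed Unigene288424 is at 0 while Unigene288422 has 337.45 FPKM, and Unigene117819 peaks in pericarp at 103.07 FPKM where both members are at or below 1.18 FPKM.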

How the data were processed

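Per the study's methods, the authors trimmed reads with Trimmomatic, joined assemblies from CLC, Trinity and SOAPdenovo-Trans, clustered redundant contigs (CD-HIT-EST), aligned the reads of a tissue back to the unigenes by Bowtie 2.0 and obtained FPKM from RSEM. Versions of the other programs are not given in the sources used here. The deposited FPKM were used unchanged, and the table of all tissues equalled the 7 tissue tables (largest difference 0). FPKM holds no counts, and RSEM divides fragments between similar contigs, so values of near-identical copies are uncertain.

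Members, lists (unigene identifiers and enzyme names from the study's supplementary tables, none absent from the files) and comparisons were chosen with earlier results of these data known. All 9 members are named, with the most alike P450 and iridoid unigene of each, P450 unigenes numbered within 3, and the highest unigene of each P450 step. Unigene279514 and Unigene245840 mark the limit of the rule, and other unigenes were named after their values were seen. No comparison has a test, since each tissue has 1 library. A fold of 2 stands in for a call, on unigenes that reached 5 FPKM in 1 of 6 tissues, and a value against 0 counts as past it. Correlations use log2(FPKM + 1). Fragment values were read from unigenes above 0 in exactly 2 libraries, as the most frequent ratio in log2 bins of 0.04, at which 22.9% to 36.7% of them lay. In mature stem 3.07% of 619 lay at 1 ratio. Alternatives covered scaling, pseudocount, coefficient, summing near-numbered unigenes, the FPKM minimum and leaving out each library. Calculations ran in Python 3.11.15 with pandas 2.3.3, numpy 2.4.6 and scipy 1.17.1, figures were drawn in matplotlib 3.10.9, and scripts were tested on simulated data.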

Additional observations from a re-analysis of the deposited data

Results flagged for a closer look

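The mature stem library, in which all 9 P450 unigenes were listed at 0 and which no comparison above used, held expression of 3 P450 unigenes numbered within 3 of Unigene117444. Unigene117447 had 80.52 FPKM, Unigene117442 had 47.46 FPKM and Unigene117443 had 16.44 FPKM there, and each was listed at 0 in the other 6 tissues. They drew attention as signal in a library left out of the description. They are 3 of the 11 neighbours that are not members. Of the 253 other P450 unigenes of the study's table, 181 reached 5 FPKM in the 6 tissues. The rest met the study's minimum of 5 FPKM only through mature stem, so nothing is read from this count. Whether they are copies of Unigene117444 was not tested.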

How the results depend on the processing

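The count of unigenes at least 2-fold higher in young leaf was 2 as deposited and 2 with TPM, but 1 with median-ratio scaling, 1 with log2(FPKM + 1) and 1 after summing near-numbered P450 unigenes. That of unigenes at least 2-fold higher in mature leaf was 3 in all of these except log2(FPKM + 1), where it was 1, and the sum, where it was 4. Both leaves stood 2-fold above every other tissue for 4 unigenes, for 6 with median-ratio scaling, 3 with log2(FPKM + 1) and 2 after summing. Median-ratio scaling lowered every log2 ratio of young to mature leaf by the same amount (a shift of -0.23), and TPM by less (-0.05). Summing turned the ratio of Unigene117814 from 1.10 to -1.22. Seed or pericarp was lowest for 9 unigenes, for 7 after summing, and for 4 when mature stem was kept, because unigenes above 0 in the fruit then have mature stem as their lowest tissue. The median pairwise correlation was 0.84, with 0.93 for Spearman's rho, 0.84 for a pseudocount of 0.1, and 0.84 to 0.89 leaving out each library in turn. With a minimum FPKM of 1 the background shares were 30.4% and 35.8% for the young and mature leaf rules and 13.8% for both leaves. No paired analysis was possible because each tissue has 1 library. Each tissue's spread between plants is unknown.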
